A study of Mus musculus with 8 samples.

Results

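The 7 genes described here are those through which a follicle cell touches its neighbour: the connexins Gja1, Gja4, Gjc1 and Gjb2, the pannexin Panx1, and the classical cadherins Cdh1 and Cdh2. They were chosen by symbol out of 23235 gene symbols measured. All 7 were in the table. Levels are in FPKM, fragments of a gene relative to its transcript length and to the mapped fragments of the library. The test was run on genes whose FPKM reached 1 or more in 2 or more libraries, which left 6 of the 7, without Gjb2.

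Connexins assemble into hemichannels, and hemichannels of neighbouring cells dock into gap junctions that pass ions, nucleotides and metabolites from cell to cell. In the ovarian follicle, granulosa cells are coupled to each other mainly by connexin 43, the product of Gja1, while connexin 37, the product of Gja4, is made by the oocyte and forms the channels between the oocyte and the granulosa cells around it. Pannexins form single-membrane channels that release ATP. Classical cadherins hold cells together at adherens junctions, N-cadherin (Cdh2) being the main one of granulosa cells and E-cadherin (Cdh1) that of oocytes and epithelia.

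RNA had been sequenced from 8 libraries of ovarian granulosa cells of female C57BL/6 mice. Cells of wild-type animals (WT) and of CNOT6/6L knockout animals (KO) were each taken untreated (0 h) and PMSG-treated (44 h), which makes 4 groups of 2 libraries. PMSG is a gonadotropin that acts like follicle-stimulating hormone and starts the growth of antral follicles. CNOT6 and CNOT6L are deadenylase subunits of the CCR4-NOT complex, which shortens the poly(A) tails of mRNAs. The labels gave neither the PMSG dose, nor the ages of the mice, nor how the alleles were made, and did not say whether the replicates came from separate animals, so that the spread behind the p-values may be technical.

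The granulosa label was checked against 10 markers, none of which was at 0 in any library: Inha, the inhibin alpha subunit, was 8434 to 23238 FPKM. Oocyte transcripts were also present, with 20 markers summing to 1461 to 7323 FPKM. The library labelled replicate 1 of treated KO stood apart in Cyp11a1 and Cnot6. Its level of Cyp11a1, the enzyme that starts steroid synthesis, was 129 FPKM, while replicate 2 had 2508 and the treated WT libraries 4339 and 4451. Its Cnot6 level of 26.7 lay within the 18.4 to 29.1 of the WT libraries, and the other 3 KO libraries had 11.7 to 17.4. Cnot6l was 2.63 to 7.07 in WT and 1.61 to 4.69 in KO. Between the replicates of KO at 44 h, 1527 genes were at least 2-fold apart, against 317 to 432 in the other groups. That gap does not tell which of the 2 libraries differs. Replicate 2 of treated KO had the highest sum of surface epithelium markers, 458 FPKM against 120 to 236 in the other libraries. In untreated KO, immune markers summed to 980 FPKM in replicate 1 and 176 in replicate 2. For the 6 tested genes, a value that turned sign or moved by over 1.5 times without treated KO replicate 1 as labelled is given both ways.

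Gja1 and Gja4 are the 2 connexins on which the results turn, and the stretches just before their start sites are shown to place them side by side. The windows of the 250 bases upstream are given from RefSeq on GRCm38.p6, a later build than the mm9 of the deposited table, and are written 5′ to 3′ on the strand of the gene, with matches to the motifs searched in capitals. Gja1 lies on the plus strand (chr10:56377050-56377299) and Gja4 on the minus strand (chr4:127314040-127314289).
Gja1: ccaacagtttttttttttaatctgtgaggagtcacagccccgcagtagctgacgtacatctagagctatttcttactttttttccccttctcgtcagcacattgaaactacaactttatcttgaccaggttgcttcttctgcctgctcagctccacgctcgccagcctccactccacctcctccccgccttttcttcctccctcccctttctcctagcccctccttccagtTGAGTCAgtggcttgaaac
Gja4: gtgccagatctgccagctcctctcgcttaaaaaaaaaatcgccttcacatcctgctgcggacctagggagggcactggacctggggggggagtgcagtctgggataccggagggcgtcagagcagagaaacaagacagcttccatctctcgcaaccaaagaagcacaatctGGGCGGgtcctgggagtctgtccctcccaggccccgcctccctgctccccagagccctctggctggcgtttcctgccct
Both strands were searched for 6 motifs: the AP-1 site TGANTCA, the cAMP response element TGACGTCA, the steroidogenic receptor half-site AAGGTCA, the GC box GGGCGG, the E-box CACGTG and the TATA box TATAAA. The Gja1 window held TGAGTCA, an AP-1 match, at -19 to -13 from the start site, and no other match. The Gja4 window held 1 GC box, at -79 to -74, and no other match. Of 32851 windows of this length, 6.75% held the AP-1 motif and 32.7% the GC box. Windows were matched for 4 of the 7 genes. That of Gjb2 held 2 GC boxes and that of Panx1 none of the 6 motifs.

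FPKM are scaled to transcript length, so levels can be compared between genes. Gja1 stood far above the rest, at 2790 to 3982 FPKM, and ranked 6 to 13 among all genes of a library. Gja4, Panx1 and Cdh2 lay between 15.1 and 92.1 FPKM, Gjc1 and Cdh1 between 1.68 and 9.02, and Gjb2 below 1 in 7 of the 8 libraries.

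The order of the middle genes depended on the group. In WT at 0 h the mean levels ran Gja4 (43.5), Panx1 (30.5) and Cdh2 (23.1), and the libraries of Gja4 and Panx1 overlapped. In WT at 44 h they ran Cdh2 (23.8), Panx1 (21.4) and Gja4 (19.2), with each overlapping its neighbour. In KO at 0 h Gja4 (77.7), Panx1 (29.9) and Cdh2 (19.3) were separate from each other, and in treated KO Gja4 (40.3) was separate from Panx1 (22.7), which overlapped Cdh2 (18.1). Gjc1 and Cdh1 overlapped in untreated WT and in treated KO, and Gjc1 was above Cdh1 in both libraries of the other groups.

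**Figure D1:**
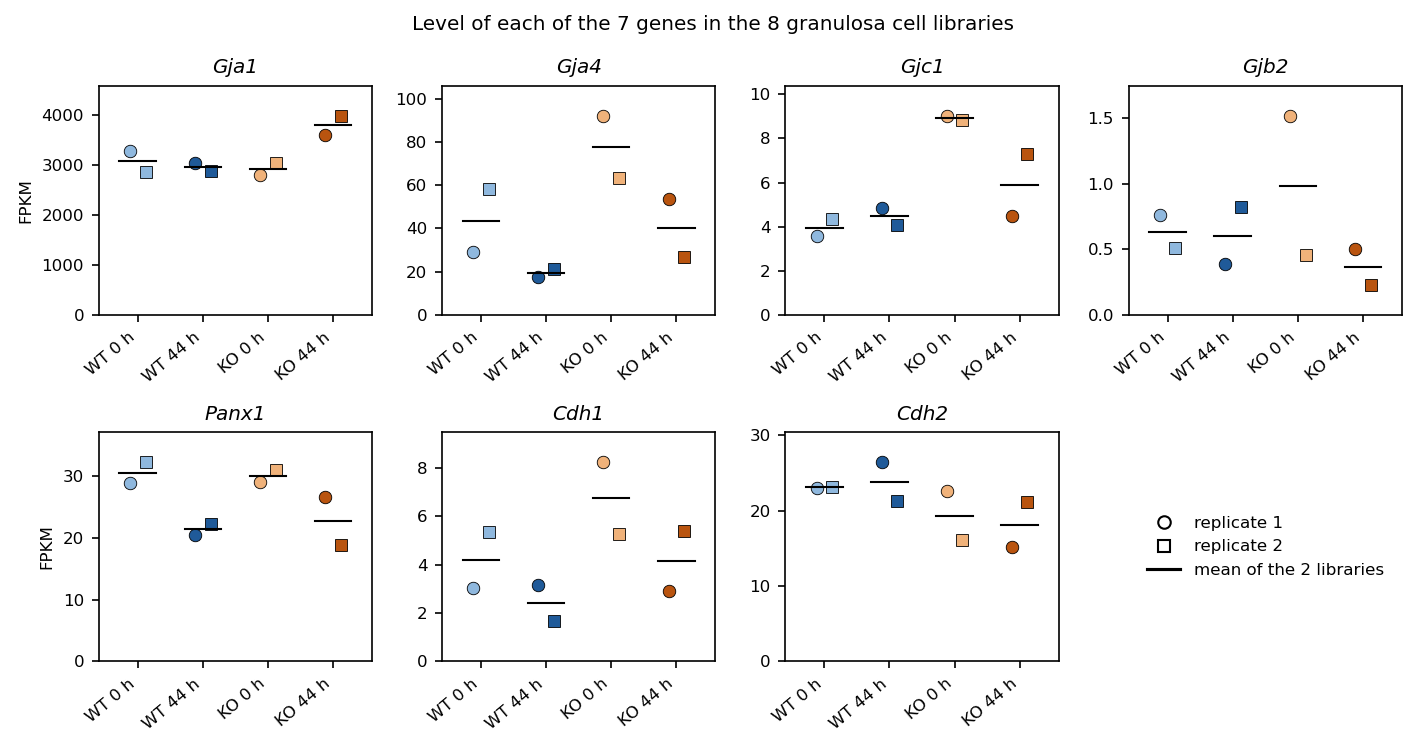
FPKM (vertical axis, from 0, scaled for each gene) of the 7 genes in WT and KO granulosa cells at 0 h and 44 h after PMSG. Circles are replicate 1, squares replicate 2 and lines the mean of the 2 libraries. Gja4 is lower at 44 h than at 0 h in both genotypes and higher in KO at both times, Gjc1 is highest in the 2 KO libraries at 0 h, and Gja1 is highest in the 2 KO libraries at 44 h.

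None of the 6 tested genes was called in any of the 7 comparisons. Genes were called at a Benjamini-Hochberg adjusted p under 0.05 in a limma fit of log2(FPKM + 1) over all 13688 genes tested, and changes below are on that log2 scale with their standard errors (SE). At that threshold limma called 0 of the 6 between KO and WT at 0 h, where 0.0365% of all genes were called, and 0 at 44 h, where 0.0219% were. It called 0 for 44 h against 0 h in WT, where 0.0804% of all genes were called, and 0 in KO, where 0.139% were. For the PMSG change averaged over genotypes, where 17.5% of all genes were called, it called 0, and Gja4 and Panx1 were nearest. For KO against WT averaged over times it called 0, against 0.11% of all genes, and for the difference of the PMSG change between genotypes 0, against 0.0438%. At an unadjusted p under 0.05 the fit gave 1 of the 6 genes between genotypes at 0 h (9.69% of all genes) and 0 at 44 h (9.79%). It gave 2 for PMSG in WT (24.1%), 1 in KO (21.1%) and 2 averaged over genotypes (36.1%). It gave 2 between genotypes averaged over times (17% of all genes) and 0 for the difference of the PMSG change (1.82%).

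Averaged over genotypes or times, most of the 6 tested genes lay lower with PMSG and higher in KO. Of the 6, 5 were lower at 44 h averaged over genotypes, with a median of -0.33, beside 61.6% of all genes lower and a median of -0.12 over all genes, though Cdh2 turned sign under other scalings and without treated KO replicate 1 as labelled. In KO against WT averaged over times, 5 were higher, with a median of 0.36, beside 54.7% and a median of 0.033 over all genes, though Panx1 turned sign under other scalings and without that library. By time, 3 of the 6 were higher and 3 lower in KO at 0 h, beside 54.6% of all genes higher, and 5 were higher at 44 h, beside 55.5%. The PMSG medians of all genes came close to 0 (-0.0015 averaged over genotypes) when libraries were scaled by the median of ratios, and the changes given below are not corrected for that shift.

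**Figure D2:**
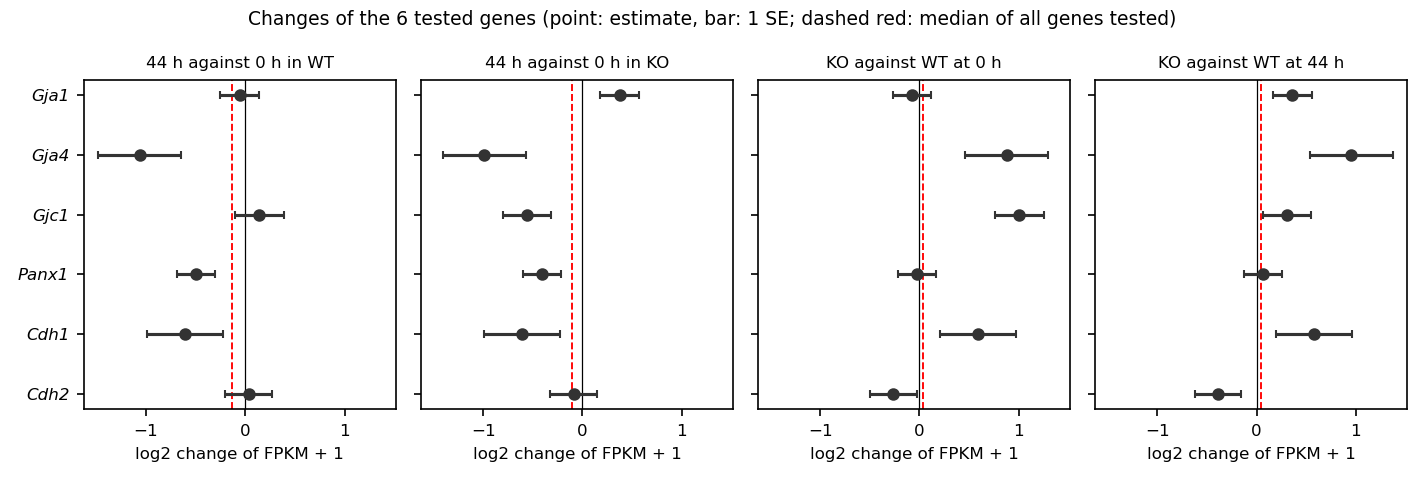
Change in log2(FPKM + 1) (horizontal axis) of the 6 tested genes in 4 comparisons. Points are estimates from the limma fit, bars are 1 SE, and the dashed red line is the median of all 13688 genes tested. Gja4 lies farthest to the left in both PMSG comparisons (-1.06 in WT and -0.99 in KO), and Gjc1 lies farthest to the right in KO against WT at 0 h (1.01).

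Gja1 (connexin 43), the channel between granulosa cells, overlapped between 0 h and 44 h in WT and was highest in treated KO. Its WT means were 3076 ± 294 and 2954 ± 113 FPKM (SD, n = 2). It was 3285 and 2868 FPKM in untreated WT, 3034 and 2874 in treated WT, 2790 and 3042 in untreated KO, and 3601 and 3982 in treated KO. The first 3 groups overlapped, and both KO libraries at 44 h lay above the other 6 libraries.

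The PMSG change of Gja1 in WT was -0.056 (SE 0.196, 95% interval -0.52 to 0.39, limma adjusted p = 0.888), with a sign that turned (0.083) under median-of-ratios scaling. In KO it was 0.38 (SE 0.196, adjusted p = 0.318), and 0.45 without treated KO replicate 1 as labelled. With quantile normalization that KO change was 0.0083. Groups of libraries that did not overlap, higher at 44 h, were found for 14.3% of all genes in KO, and Gja1 was 1 of them.

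Between genotypes Gja1 was -0.075 (95% interval -0.54 to 0.39, adjusted p = 0.953) at 0 h, which turned to 0.10 under quantile normalization. At 44 h it was 0.36 higher in KO (SE 0.196, adjusted p = 0.568), a ratio of 1.28, and 0.43 without the library labelled KO replicate 1. Non-overlap in that direction was found for 23.9% of all genes. The difference between genotypes in the PMSG change was 0.43 (SE 0.277, adjusted p = 1.00). These comparisons share the KO libraries at 44 h.

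Gja4 (connexin 37), the oocyte's connexin, lay lower with PMSG by more than any other of the 6 genes in each genotype, an order that in KO did not hold without replicate 2 at 44 h (-0.50, against -0.96 for Cdh1 and -0.86 for Gjc1). It was 29.0 and 58.0 FPKM in untreated WT and 17.4 and 21.0 in treated WT. In KO it was 92.1 and 63.4 at 0 h and 53.7 and 26.8 at 44 h. Both libraries at 44 h lay below both at 0 h in each genotype, and both KO libraries lay above both WT libraries at each time. The 2 WT libraries at 0 h were themselves 0.98 apart on the log2 scale, farther than 97.5% of the genes tested.

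With PMSG, Gja4 was lower by 1.06 in WT (SE 0.419, ratio 0.479, limma adjusted p = 0.184) and by 0.99 in KO (SE 0.419, ratio 0.504, adjusted p = 0.237). Averaged over genotypes the change was -1.03 (SE 0.296, 95% interval -1.72 to -0.33, adjusted p = 0.0546). It passed the threshold without WT replicate 1 at 0 h (-1.27, adjusted p = 0.0478) and without treated KO replicate 1 as labelled (-1.27, adjusted p = 0.0169). In WT alone, the change was -1.55 without replicate 1 at 0 h and -0.57 without replicate 2. In KO it was -1.48 without replicate 1 at 44 h and -0.50 without replicate 2. Libraries that did not overlap, lower at 44 h, in both genotypes were found for 25.4% of all genes. The PMSG changes of the 2 genotypes differed by 0.074 (95% interval -1.32 to 1.47), an interval that includes differences larger than the change itself, and by -0.41 without treated KO replicate 1 as labelled.

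Between genotypes Gja4 was higher in KO by 0.88 at 0 h (SE 0.419, limma adjusted p = 0.569) and by 0.95 at 44 h (SE 0.419, adjusted p = 0.525). At 44 h this was 0.47 without the library labelled KO replicate 1 and 1.44 without replicate 2. At 0 h it was 0.39 without WT replicate 1 and 1.37 without WT replicate 2. The average over both times was 0.92 (SE 0.296, ratio 1.89, adjusted p = 0.199), and it passed the threshold without KO replicate 2 at 44 h (1.16, adjusted p = 0.0448). Non-overlap upward at both times was found for 13.5% of all genes.

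Oocyte markers moved with Gja4 in these libraries. The summed FPKM of the 20 markers was 2644 and 4458 in untreated WT, 1461 and 1463 in treated WT, 7323 and 6418 in untreated KO, and 3463 and 2074 in treated KO. All 19 markers tested were lower at 44 h averaged over genotypes, each of them called, where 12.4% of all genes were called lower. All 19 were higher in KO at both times, beside 54.6% of all genes at 0 h and 55.5% at 44 h. Of the 19, limma called 0. At an unadjusted p under 0.05 limma gave 15 at 0 h (9.69% of all genes) and 12 at 44 h (9.79%). None of the 20 was at 0 in any library. In a bulk sample, fewer cells of a type and less RNA per cell cannot be told apart. The part of these transcripts in the Gja4 differences was not tested.

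Set against that sum, Gja4 varied less than by itself. Its FPKM ranged 5.29-fold over the 8 libraries and the marker sum 5.01-fold. Gja4 per 1000 FPKM of oocyte markers was 10.96 and 13.0 in untreated WT, 11.9 and 14.4 in treated WT, 12.6 and 9.88 in untreated KO, and 15.5 and 12.9 in treated KO. These ratios ranged 1.57-fold, and each pair of groups compared overlapped, save that both KO libraries at 44 h were above both at 0 h. Against single oocyte genes the ratio ranged 1.59-fold for Gdf9, an oocyte growth factor, 1.72-fold for Zp3, a zona pellucida protein, and 4.09-fold for the less abundant germ cell helicase Ddx4. The same ratio ranged 5.45-fold for Gja1, 3.84-fold for Panx1, 7.20-fold for Cdh2, 3.63-fold for Gjc1 and 3.16-fold for Cdh1. By FPKM alone they ranged 1.43-fold, 1.71-fold, 1.75-fold, 2.52-fold and 4.90-fold in that order. A ratio to a sum that ranged 5.01-fold is bound to be wide for a gene that varied little. Of these genes, only Cdh1 ranged less as a ratio.

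**Figure D3:**
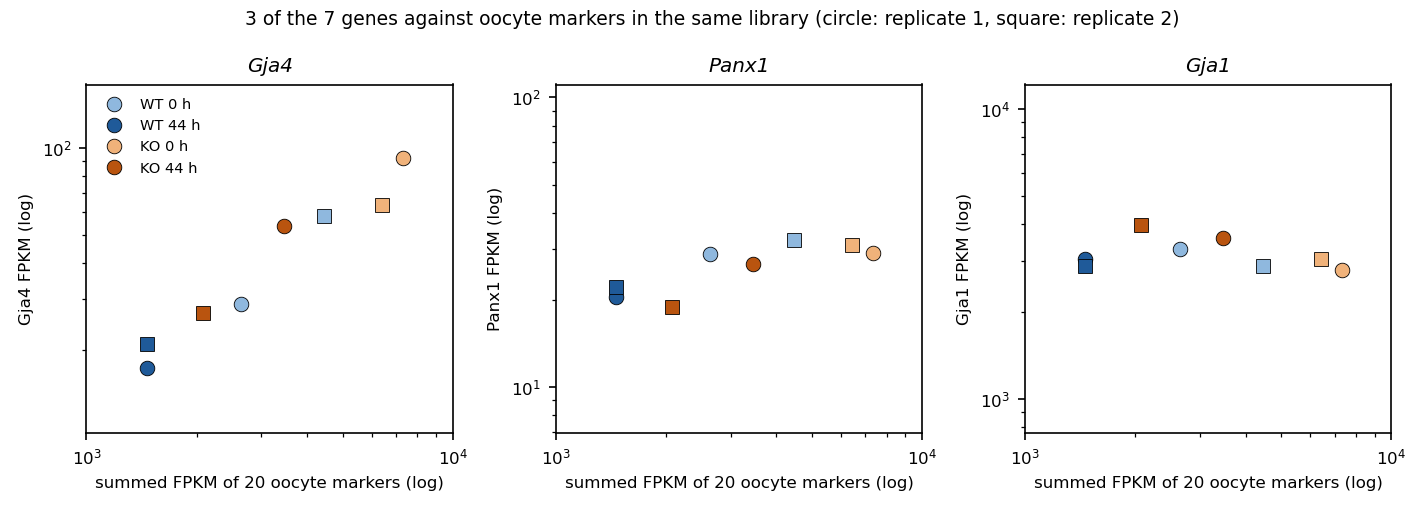
FPKM of Gja4, Panx1 and Gja1 (vertical axes, log) against the summed FPKM of 20 oocyte markers in the same library (horizontal axis, log). Each point is 1 library, coloured by group, with circles for replicate 1 and squares for replicate 2. Gja4 runs along with the markers from 17.4 to 92.1 FPKM, whereas Gja1 stays between 2790 and 3982.

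Gja4 is also a connexin of arterial endothelium, so endothelial markers were read beside it. Their sum over 10 genes was 22.6 and 24.5 in untreated WT, 42.4 and 60.9 in treated WT, 31.1 and 25.5 in untreated KO, and 30.1 and 64.1 in treated KO. Of the 8 tested, 7 were higher at 44 h averaged over genotypes, beside 38.4% of all genes. Limma called 3 of them higher, where 17.5% of all genes were called in either direction. These were Emcn (1.38, adjusted p = 0.0406), Egfl7 (0.95, adjusted p = 0.0256) and Eng (1.28, adjusted p = 0.0445). Pecam1, an endothelial adhesion molecule, was lower (-0.48, adjusted p = 0.177). In KO against WT, 5 of the 8 were higher at 0 h, beside 54.6% of all genes, and 1 at 44 h, beside 55.5%. The part of endothelial cells in the Gja4 values was not tested.

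Gjc1 (connexin 45), a connexin best known from smooth muscle and the heart's conduction system, was highest in KO without PMSG. It was 3.59 and 4.33 FPKM in untreated WT, 4.86 and 4.07 in treated WT, 9.02 and 8.83 in untreated KO, and 4.48 and 7.31 in treated KO. Both KO libraries at 0 h lay above the other 6. In WT the 2 times overlapped, and so did the genotypes at 44 h.

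At 0 h Gjc1 was 1.01 higher in KO (SE 0.246, ratio 2.01, limma unadjusted p = 0.00451, adjusted p = 0.364), and 1.23% of the genes tested had a smaller p. Libraries that did not overlap, higher in untreated KO, were found for 27.3% of all genes. At 44 h the difference was 0.31 (SE 0.246, adjusted p = 0.677), 0.61 without the library labelled KO replicate 1 and 0.0064 without replicate 2. Averaged over times it was 0.66 (SE 0.174, adjusted p = 0.152).

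The PMSG change of Gjc1 was 0.14 in WT (95% interval -0.44 to 0.72, adjusted p = 0.754) and -0.56 in KO (SE 0.246, adjusted p = 0.252), the latter -0.26 without treated KO replicate 1 as labelled and -0.86 without replicate 2. The difference between the genotypes, -0.70 (SE 0.348, limma unadjusted p = 0.0839, adjusted p = 1.00), did not pass, and was -0.40 without treated KO replicate 1 as labelled. The KO libraries at 0 h enter both this difference and the genotype difference at 0 h. Markers of theca and stroma summed to 121 and 132 in untreated WT and 161 and 115 in untreated KO, which overlapped. Of the 13 tested, 9 were higher in untreated KO (median 0.48), beside 54.6% of all genes (median 0.034). All 10 immune markers were higher in untreated KO (median 0.56), with sums of 258 and 233 FPKM in untreated WT and 980 and 176 in untreated KO, which also overlapped. All 19 oocyte markers were higher too (median 0.94). Gjc1 per 1000 FPKM of oocyte markers was 1.36 and 0.971 in untreated WT and 1.23 and 1.38 in untreated KO. The genotypes overlapped on that scale at 0 h. In treated WT the ratio was 3.33 and 2.78. Over all libraries it ranged 3.63-fold, more than the 2.52-fold of Gjc1 FPKM. The part of oocyte, theca, stroma and immune cells in the Gjc1 difference was not tested.

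Gjb2 (connexin 26), an epithelial connexin, was near the limit of measurement. It was 0.761 and 0.509 FPKM in untreated WT, 0.389 and 0.821 in treated WT, 1.52 and 0.453 in untreated KO, and 0.505 and 0.231 in treated KO. Each pair of groups compared overlapped, and Gjb2 was not tested.

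The connexin RNA of these cells was nearly all Gja1. Over the 20 connexins of the table, Gja1 made up 96.0% to 99.1% of the summed FPKM, lowest in KO replicate 1 at 0 h and highest in WT replicate 1 at 44 h. Gja4 made up 0.871% and 1.97% in untreated WT, 0.568% and 0.724% in treated WT, 3.17% and 2.03% in untreated KO, and 1.47% and 0.667% in treated KO. The Gja1 to Gja4 ratio thus ran from 30.3 in KO replicate 1 at 0 h to 174 in WT replicate 1 at 44 h. Gjc1 was at most 0.311% and Gjb2 at most 0.0522%.

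**Figure D4:**
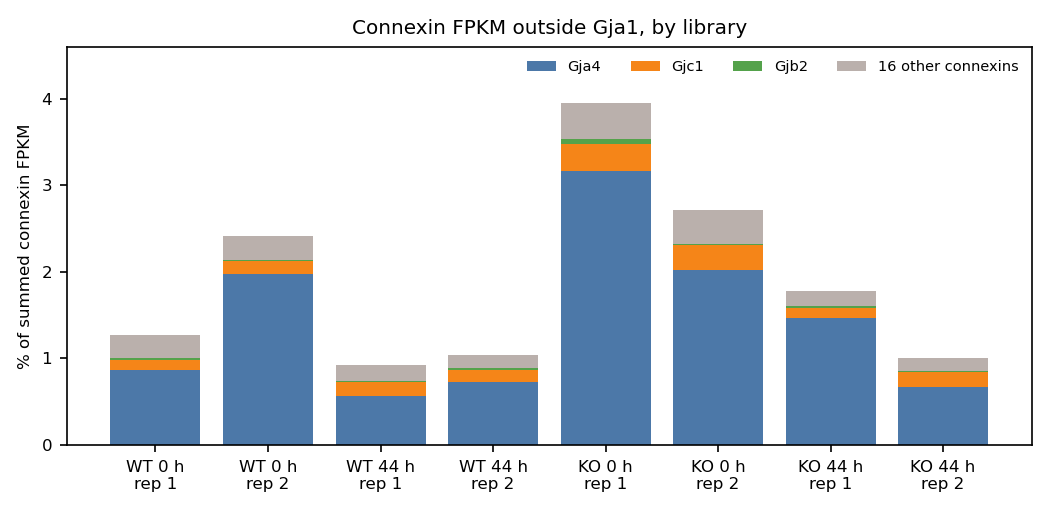
Share of the summed connexin FPKM (vertical axis, percent, from 0) that is not Gja1, by library, stacked as Gja4, Gjc1, Gjb2 and the 16 other connexins. Gja4 is the largest segment in each of the 8 libraries, from 0.568% in WT replicate 1 at 44 h to 3.17% in KO replicate 1 at 0 h.

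Of the 18 other connexins and pannexins, 3 could be tested: Gjb1 (connexin 32), Gjc3 and Gje1. All 3 were lower at 44 h averaged over genotypes, as were 61.6% of all genes. Gjc3, a connexin of myelinating glia, was 3.25 and 2.44 FPKM in untreated WT, 1.69 and 1.36 in treated WT, 4.96 and 3.79 in untreated KO, and 1.60 and 1.30 in treated KO. Both libraries at 44 h lay below both at 0 h in each genotype, as for 25.4% of all genes. Gjc3 fell by 0.86 (SE 0.159, limma adjusted p = 0.0224), in a comparison where 12.4% of all genes were called lower. Its call was lost, at adjusted p up to 0.0906, when any one of the WT libraries or of the KO libraries at 0 h was left out. Gjb1 averaged 2.09 ± 1.51 FPKM in untreated WT, 0.859 ± 0.316 in treated WT, 2.57 ± 0.539 in untreated KO and 1.23 ± 0.347 in treated KO (SD, n = 2). Gje1 averaged 1.85 ± 1.11, 0.753 ± 0.0291, 1.73 ± 0.507 and 1.09 ± 0.132 FPKM in the same order. All 19 tested oocyte markers were called lower in the averaged PMSG comparison, and their part in the falls of these connexins was not tested.

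Panx1, the ATP-releasing channel, lay lower after PMSG in both genotypes, and the 2 changes differed by 0.092 (95% interval -0.55 to 0.73), or by -0.14 without treated KO replicate 1 as labelled. It was 28.9 and 32.2 FPKM in untreated WT, 20.5 and 22.2 in treated WT, 29.0 and 30.9 in untreated KO, and 26.5 and 18.9 in treated KO. Both libraries at 44 h lay below both at 0 h in each genotype. WT and KO overlapped at each time.

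The PMSG change of Panx1 was -0.49 in WT (SE 0.192, ratio 0.710, limma adjusted p = 0.179) and -0.40 in KO (SE 0.192, adjusted p = 0.282). In KO it was -0.64 without treated KO replicate 1 as labelled and -0.17 without replicate 2. Averaged over genotypes it was -0.45 (SE 0.136, 95% interval -0.77 to -0.13, adjusted p = 0.0620), and it passed without that replicate 1 (-0.57, adjusted p = 0.0144). Non-overlap downward in WT was found for 40.6% of all genes and in KO for 34.1%. The genotype difference of Panx1 was -0.026 at 0 h (95% interval -0.48 to 0.43) and 0.066 at 44 h (95% interval -0.39 to 0.52), the latter -0.17 without the library labelled KO replicate 1. Averaged over times its sign turned without that library, with quantile normalization and with median-of-ratios scaling.

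Cdh2 (N-cadherin), the adhesion molecule of granulosa cells, overlapped between the 2 times in each genotype and lay lower in KO. It was 23.0 and 23.1 FPKM in untreated WT, 26.4 and 21.2 in treated WT, 22.5 and 16.1 in untreated KO, and 15.1 and 21.1 in treated KO. Both KO libraries lay below both WT libraries at each time, by a narrow margin: 22.5 against 23.0 at 0 h and 21.1 against 21.2 at 44 h.

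Its genotype difference was -0.26 at 0 h (SE 0.235, limma adjusted p = 0.808) and -0.39 at 44 h (SE 0.235, adjusted p = 0.593), the latter -0.16 without the library labelled KO replicate 1 and -0.61 without replicate 2. At 0 h it was -0.031 without KO replicate 2 and -0.49 without KO replicate 1. Libraries that did not overlap, lower in KO, were found for 19.1% of all genes at 0 h, for 15.1% at 44 h and for 5.8% at both times. The PMSG change was 0.035 in WT (95% interval -0.52 to 0.59) and -0.089 in KO (95% interval -0.64 to 0.47), the latter turning sign with quantile normalization, with median-of-ratios scaling and when either treated or untreated KO replicate 1 was left out (0.14 each). The gene lies over an antisense gene, Gm15485, on the opposite strand in the GENCODE annotation of GRCm38. The strand setting of the counting is not given in the sources used here, so reads of the 2 cannot be told apart. No gene overlaps the other 6.

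Cdh1 (E-cadherin) was low and spread widely within groups. It was 3.04 and 5.36 FPKM in untreated WT, 3.16 and 1.68 in treated WT, 8.22 and 5.27 in untreated KO, and 2.90 and 5.38 in treated KO. Each pair of groups compared overlapped. The ratio of Cdh2 to Cdh1 was 2.74 and 3.05 in the KO libraries at 0 h and 3.92 to 12.6 in the other 6.

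With PMSG, Cdh1 was -0.60 in WT (SE 0.383, limma adjusted p = 0.372) and -0.61 in KO (SE 0.383, adjusted p = 0.402), and between genotypes 0.59 at 0 h (adjusted p = 0.711) and 0.58 at 44 h (adjusted p = 0.620). Single libraries moved these by over 1.5 times. The change in WT was -0.92 without replicate 1 at 44 h and -0.29 without replicate 2, and in KO -0.25 without the library labelled replicate 1 at 44 h and -0.96 without replicate 2. The genotype difference ranged from 0.26 to 0.91 at 0 h and from 0.23 to 0.94 at 44 h with 1 library left out, the 0.94 being without treated KO replicate 1 as labelled.

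Epithelial markers differed between the same libraries. Surface epithelium markers (9 genes) summed to 181 and 148 in untreated WT, 233 and 236 in treated WT, 156 and 120 in untreated KO, and 144 and 458 in treated KO. Oviduct and ciliated markers (7 genes) summed to 401 and 24.4 in treated WT and to 17.3 and 563 in treated KO, and were 24.9 to 102 at 0 h. In each group, Cdh1 was higher in the library with more oviduct and ciliated markers. At 0 h it was 5.36 against 3.04 in WT and 8.22 against 5.27 in KO. At 44 h it was 3.16 against 1.68 in WT and 5.38 against 2.90 in KO. Surface epithelium markers were higher in the WT library with less Cdh1 at each time. In KO they were higher in the library with more Cdh1 at each time. The part of such cells, and of the oocyte markers given beside Gja4, in the Cdh1 values was not tested.

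The genes that partner with these channels and adhesion molecules were read from lists. Among 10 partners of gap junctions, 8 were tested, and 1, Cnst, was called for the averaged PMSG change, in which 12.4% of all genes were called lower. Cnst encodes consortin, a receptor that carries connexins to the cell surface. It was 20.3 and 27.7 FPKM in untreated WT, 11.04 and 10.1 in treated WT, 28.3 and 26.0 in untreated KO, and 12.9 and 14.2 in treated KO. The libraries at 44 h were below those at 0 h in each genotype, as for 25.4% of all genes. Cnst fell by 1.02 (SE 0.135, limma adjusted p = 0.0145). It kept its call under 12 of 17 alternatives and lost it without WT replicate 2 at 0 h, either WT library at 44 h or either KO library at 0 h (adjusted p up to 0.0716). Tjp1, which encodes ZO-1, a scaffold that binds connexin 43, was -0.43 (adjusted p = 0.170), and Nedd4, a ubiquitin ligase that acts on connexin 43, was -0.24 (adjusted p = 0.212). Of the 8, 2 were higher and 6 lower, beside 61.6% of all genes lower. Cav1, the next by p, was among the higher (0.71, SE 0.439, limma adjusted p = 0.281). The median of the 8 was -0.20. All 19 tested oocyte markers were called lower in the same comparison, and their part in the changes of these and the following list genes was not tested.

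Among 15 other classical cadherins, 5 were tested and 1 was called for the averaged PMSG change, lower, beside 12.4% of all genes called lower. Cdh3 (P-cadherin) was 4.75 and 7.87 FPKM in untreated WT, 2.16 and 3.49 in treated WT, 13.2 and 9.08 in untreated KO, and 6.13 and 5.16 in treated KO. Both libraries at 44 h lay below both at 0 h in each genotype, as for 25.4% of all genes. Cdh3 fell by 0.89 averaged over genotypes (SE 0.218, limma adjusted p = 0.0370). It kept its call under 7 of 17 alternatives and lost it with no filter on low values, with quantile normalization, with median-of-ratios scaling, and without WT replicate 2 at 0 h, either WT library at 44 h, either KO library at 0 h or KO replicate 2 at 44 h (adjusted p up to 0.129). Both KO libraries lay above both WT libraries at each time, as for 13.5% of all genes. The difference of Cdh3 averaged over times was 0.78 (limma adjusted p = 0.162). The 19 tested oocyte markers lay lower with PMSG and higher in KO as Cdh3 did, and their part in its values was not tested. For the averaged PMSG change, 3 of the 5 cadherins were higher and 2 lower, beside 61.6% of all genes lower. Next to Cdh3 by p in limma were Cdh20 (-0.42, adjusted p = 0.0887), Cdh5 (0.65, adjusted p = 0.0932) and Cdh11 (0.52, adjusted p = 0.0991).

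Of 15 catenins and adherens junction genes, 13 were tested, 6 higher and 7 lower at 44 h averaged over genotypes, with 2 called, both lower, a share near the 12.4% of all genes called lower. Ctnnd1, which encodes p120-catenin, the catenin that keeps cadherins at the membrane, fell by 0.63 (SE 0.149, limma adjusted p = 0.0350). Mllt4, which encodes afadin, the actin anchor of nectins, fell by 0.47 (SE 0.125, adjusted p = 0.0445). They kept their calls under 8 and 5 of 17 alternatives, and both lost them when any one of the WT libraries or of the KO libraries at 0 h was left out. Both also lost them with no filter on low values and with median-of-ratios scaling, and Mllt4 with quantile normalization and without either KO library at 44 h. Next by p in limma were Pvrl3, at -0.70 (SE 0.196, adjusted p = 0.0506), and Pvrl2, which was higher, at 1.41 (SE 0.429, adjusted p = 0.0636).

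Of 13 tight junction genes, 12 were tested, 7 higher and 5 lower, with 2 called, both lower, a share near that of all genes (12.4% called lower). Cldn4, a claudin, fell by 0.67 (SE 0.155, limma adjusted p = 0.0327), and Jam2, a junctional adhesion molecule, fell by 0.45 (SE 0.110, adjusted p = 0.0373). They kept their calls under 6 of 16 and 6 of 17 alternatives, and both lost them when any one of the WT libraries or of the KO libraries at 0 h was left out. Both also lost them with no filter on low values and with quantile normalization, Cldn4 without KO replicate 2 at 44 h, and Jam2 with median-of-ratios scaling and without the mean-variance trend. Next by p in limma were Jam3 (0.54, SE 0.173, adjusted p = 0.0717) and Cldn5 (1.20, SE 0.426, adjusted p = 0.0927), both higher. Without treated KO replicate 1 as labelled, the changes of the 7 genes called in these lists were -0.41 to -0.99, and Mllt4 lost its call (adjusted p = 0.0562). In the other 6 comparisons limma called 0 of the 41 genes tested in these lists, where 0.0219% to 0.139% of all genes were called. At an unadjusted p under 0.05 limma gave 4 of the 41 between genotypes at 0 h (9.69% of all genes) and 4 at 44 h (9.79%). For PMSG it gave 11 in WT (24.1%) and 10 in KO (21.1%). Between genotypes averaged over times it gave 8 (17%), and for the difference of the PMSG change 1 (1.82%).

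Genes with the most similar profile were looked for among 8037 tested genes of mean FPKM at least 5, by the mean absolute difference of centred log2(FPKM + 1) over the 8 libraries. For Gja4 they were Zar1l (0.074), a gene of oocytes and early embryos, Zfp296 (0.078) and Gbx2 (0.085), where the median gene differed by 0.71. Zar1l was 41.4 and 68.2 FPKM in untreated WT, 23.6 and 26.3 in treated WT, 113 and 84.2 in untreated KO, and 64.2 and 34.1 in treated KO. Its libraries ran in the same order as those of Gja4.

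For Gja1 the nearest were Depdc1a (0.065), Psmc6 (0.070) and Map2k6 (0.070), against a median of 0.26, and for Panx1 Sspn (0.056), Zmym3 (0.058) and Gins3 (0.058), against 0.29. For Cdh2 they were Anxa4 (0.059), Pxdn (0.068) and Supt5h (0.069), against 0.29. For Gjc1 they were Tmem38a (0.13), Hexim2 (0.14) and Mtus1 (0.15), against 0.43, and for Cdh1 Gprc5c (0.12), Fam53c (0.14) and Nfil3 (0.14), against 0.48. These are descriptions over 8 libraries and say nothing of shared control.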

How the data were processed

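A single table of FPKM values for 23235 gene symbols in the 8 libraries was deposited. The submitters' processing notes name mm9, Cufflinks 2.2.1 and TopHat2 2.1.1, and the annotation is not given in the sources used here. FPKM are not counts, so no count model was used. Relative depth, read from the steps between low values, was 0.901 to 1.25 (1 being the median library), and FPKM sums were 675557 to 753216.

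Values were analysed as log2(FPKM + 1), which understates changes of low genes. The 13688 genes that reached an FPKM of 1 in 2 or more libraries were fitted with limma 3.58.1 in R 4.3.3, using 4 group means, a mean-variance trend and 4 residual degrees of freedom, tested on simulated data. P-values were two-sided and adjusted over all genes within each of 7 comparisons. An exact permutation test of 2 against 2 cannot go below p = 0.333. The genes, the lists of partners and markers, and the rules for naming genes were chosen with earlier results of these data known. Named were all 7 genes, up to 4 genes of a list by smallest p, and the 3 genes nearest in profile. Alternatives covered the pseudocount, filter, scaling, empirical Bayes, groups in the fit, replicate block and each library left out. Another 2 were added after seeing the data: leaving out both KO libraries at 44 h, and single oocyte genes as the denominator for Gja4. Promoter windows were searched with Python 3.11.15.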

Additional observations from a re-analysis of the deposited data

How the results depend on the processing

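Over the alternatives, 707 of the values of the 6 tested genes kept their direction and their side of the threshold, 39 turned sign and 4 came to pass. The count of the 6 genes called stayed at 0 in every setting except when single libraries were left out: it was 0 to 2 for the PMSG change averaged over genotypes (1 when WT replicate 1 at 0 h was dropped and 2 when KO replicate 1 at 44 h was) and 0 to 1 for KO against WT averaged over times (1 without KO replicate 2 at 44 h). 

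Sign turned under other scalings for values near 0. With quantile normalization, Gja1 was 0.10 in KO against WT at 0 h and -0.13 for the averaged PMSG change. Cdh2 was 0.032 for PMSG in KO and 0.083 averaged, and Panx1 was -0.017 in KO against WT averaged. The difference between genotypes in the PMSG change of Cdh1 was 0.027 with that normalization and -0.0050 in the main fit. With median-of-ratios scaling, Gja1 was 0.083 for PMSG in WT, and Cdh2 was 0.045 for PMSG in KO and 0.11 averaged. Panx1 was -0.028 in KO against WT averaged, and the Cdh1 difference in the PMSG change was 0.015. With a pseudocount of 0.1 the Cdh1 difference in the PMSG change was 0.062. The cause was not tested.

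With single libraries left out, Gja1 ranged from -0.17 to 0.023 in KO against WT at 0 h and from -0.15 to 0.042 for PMSG in WT. Panx1 ranged from -0.10 to 0.050 in KO against WT at 0 h, -0.17 to 0.30 at 44 h and -0.098 to 0.14 averaged. Cdh2 ranged from -0.12 to 0.19 for PMSG in WT, -0.32 to 0.14 in KO and -0.14 to 0.089 averaged. The difference of the PMSG change ranged from -0.41 to 0.56 for Gja4, -0.14 to 0.33 for Panx1, -0.36 to 0.35 for Cdh1 and -0.36 to 0.11 for Cdh2.

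The number of all genes called depended on which libraries gave the spread. For PMSG in WT it was 11, 4 to 1333 with 1 library left out, 945 from the WT libraries alone and 1339 without both KO libraries at 44 h. For PMSG in KO it was 19, and 3 to 1169 with 1 library left out. For PMSG averaged it was 2396, 28 to 3818 with 1 library left out and 1188 with no filter. For KO against WT it was 5 (3 to 9) at 0 h, 3 (2 to 801) at 44 h and 15 (7 to 1341) averaged, and for the difference 6 (6 to 78). Robust empirical Bayes gave 8, 34, 35 and 26 for KO against WT at 0 h, PMSG in WT, PMSG in KO and KO against WT averaged. The share of genes higher with PMSG averaged was 38.4%, 45.8% with quantile normalization and 49.9% with median-of-ratios scaling.

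The labels do not say whether same-numbered libraries were collected together. Their deviations correlated at -0.11 to -0.0068, which shows no shared shift but does not settle the pairing. With the replicate block, 0 of the 6 genes were called in each comparison, and of all genes 781 for PMSG averaged, 7 for PMSG in WT and 6 in KO. Cdh3, Ctnnd1, Mllt4, Cldn4 and Jam2 were not called for PMSG averaged with that block (adjusted p = 0.0608 to 0.0844). The Gja1 share of connexin FPKM in WT at 44 h was 98.9% with quantile normalization. Of the 6 tested genes, Gja4 and Cdh1 had the largest standard errors with 2 libraries a group (0.419 and 0.383).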
